A study of Rattus norvegicus with 8 samples.

Results

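The genes described here are the antioxidant and glutathione genes of the tibialis anterior of the rat, a shin muscle made mostly of fast fibres. They were chosen by name: every gene whose symbol begins with Gst, Gpx, Prdx or Txn, together with Sod1, Sod2, Sod3, Cat, Gclc, Gclm, Gsr, Gss, Hmox1, Nqo1, Nfe2l2 and Srxn1, where a probe set carried that symbol alone. This gave 61 genes with 70 probe sets, out of 14217 genes and 31099 probe sets on the array. Where a gene had several probe sets, the one with the highest mean over all arrays was used. Prdx1 is not among them, since its probe set carries several symbols.

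Mitochondria and oxidases release superoxide, which superoxide dismutases turn into hydrogen peroxide. Catalase, the glutathione peroxidases and the peroxiredoxins remove the peroxide, and thioredoxin, glutathione and their reductases return the electrons that this consumes. Glutathione S-transferases couple glutathione to reactive compounds, and the transcription factor NRF2, encoded by Nfe2l2, drives many of these genes through antioxidant response elements. Thyroid hormone raises oxygen use in muscle, which is why the antioxidant system is of interest in hyperthyroidism.

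Expression was measured in 8 adult Sprague-Dawley rats, 1 array per rat, each group holding 3 males and 1 female. The 4 hyperthyroid rats (replicates 1, 2, 3 and 5) had received intraperitoneal T3, the active thyroid hormone, for 6 weeks, with 25 µg per 100 g given on every 2nd day, and were killed 24 hours after the final injection. The 4 control rats (replicates 7, 8, 9 and 11) were untreated, and the labels name no vehicle injection. T3 was given to the whole animal, so the muscle's own response to the hormone and its response to changes elsewhere cannot be told apart.

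The values are intensities on a linear scale, set by the deposited processing to the same trimmed mean on every array, and they have no absolute unit. Array medians ran from 38.8 to 42.0 on hyperthyroid and from 43.5 to 54.9 on control arrays, so every hyperthyroid median was below every control median. The scaling thus left a difference between arrays that follows the treatment groups, and its cause was not tested. The sign of small estimates depends on this scaling, as the alternatives that shift all genes show. All 10 fast-fibre markers (Myh4, Ckm and Acta1 among them) lay above the filter on low values on these arrays, so the defining markers of a fast muscle are present. Their summed intensity ran from 294925 to 361574 on hyperthyroid and from 358392 to 432932 on control arrays. The summed intensity of 8 slow-fibre markers was 42813 and 29181 on control replicates 7 and 11, against 3647 to 5441 on the other control arrays and 574 to 8226 on hyperthyroid arrays, so that these 2 control samples stand apart. Other markers were also highest on these 2 samples, by the mean log2 level of a list relative to each gene's mean over arrays. Schwann cell and nerve markers were at 1.75 and 0.69 on control replicates 7 and 11, against at most 0.10 elsewhere. Smooth muscle markers were at 0.74 and 0.40, against at most 0.11 elsewhere. Not every gene of these lists followed its mean. In whole muscle, fewer fibres of a type and less RNA per fibre cannot be told apart. Precision is limited by having 4 arrays in each group. The p-values set each group difference against the spread between these rats, adjusted with the spread of all genes.

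None of the antioxidant genes passed the test across all genes. Of the 61, 51 had a mean level above the filter and were tested among 10200 genes with limma, and 0 had an adjusted p under 0.05, a threshold passed by 7 of all genes tested (0.0686%; 0.0686% in the higher direction and 0% in the lower). An unadjusted p under 0.05 was reached by 6 of the 51, or 11.8%, against 10.6% of all genes, which is a share near the background. Of these, Nqo1 and Gstp1 were higher in the hyperthyroid group (5.38% of all genes were) and Gpx1, Prdx3, Gstm2 and Gstm7 were lower (5.21% of all genes were). The groups did not overlap for 5 of the 51, against 6.55% of all genes. Every hyperthyroid array lay above every control array for Nqo1 and Gstp1 (3.34% of all genes), and below for Prdx3, Gstm2 and Gclm (3.21%). The lowest adjusted p of any of them was 0.313, that of Nqo1.

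Under the deposited scaling, the genes as a whole were balanced around no difference. The log2 fold change was above 0 for 25 of the 51 and below 0 for 26, with a median of -0.0020, and the median of all genes tested was -0.00029. For 39 of the 51, the 95% interval of the log2 fold change lay between -1 and 1, so that a 2-fold difference in either direction lay outside it. The same held for 59.3% of all genes. The spread between replicates was small for abundant transcripts and large for scarce ones: the median SD within groups was 0.18 on the log2 scale over the 12 antioxidant genes whose mean log2 level was 10 or more, and 0.50 over the 16 whose mean was under 7.

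**Figure D1:**
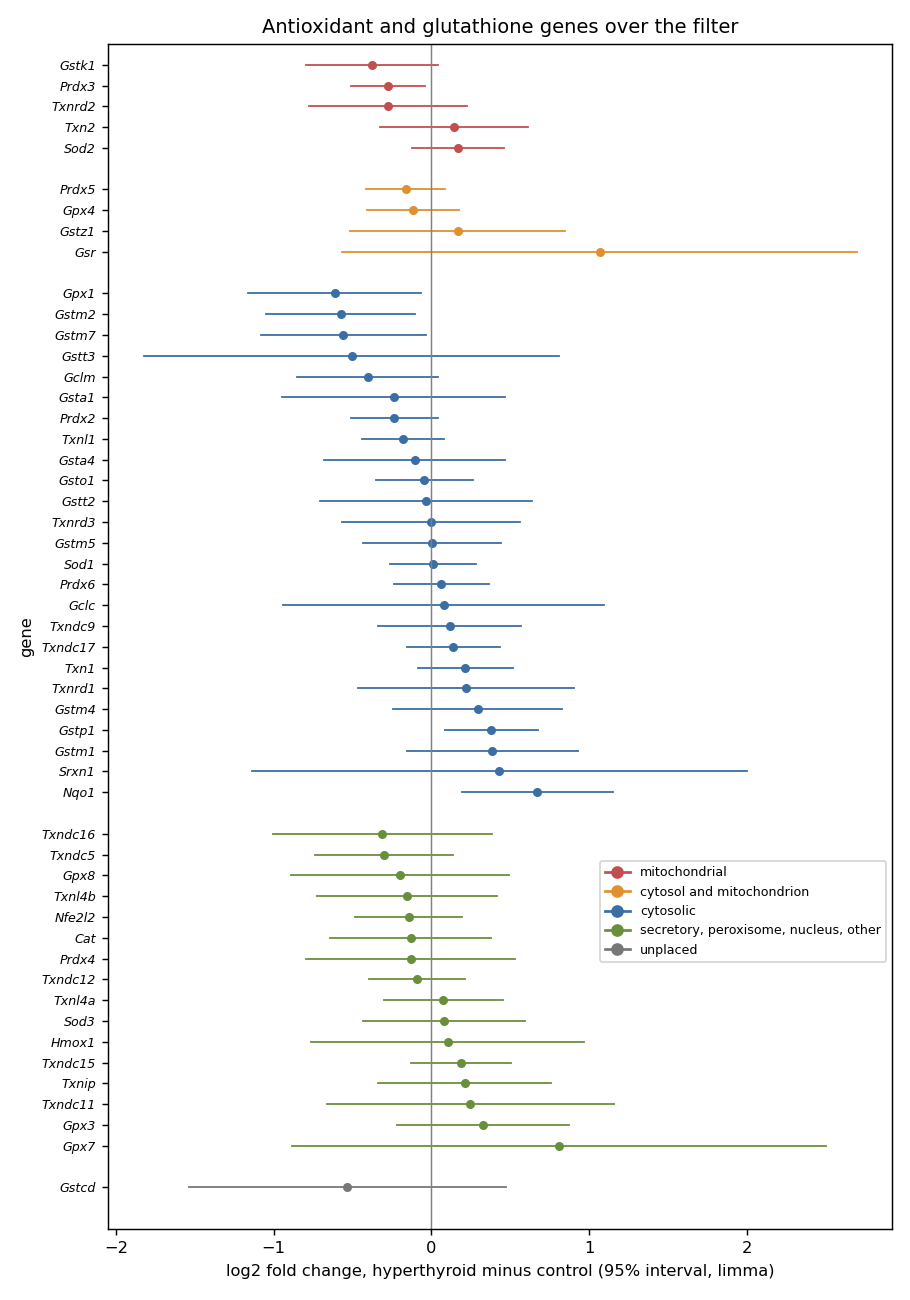
Log2 fold change (hyperthyroid minus control, x axis) of the 51 tested antioxidant and glutathione genes, with points for the limma estimate and bars for its 95% interval, grouped by place in the cell. The bars of Nqo1 and Gstp1 lie right of 0 and those of Gpx1, Gstm2, Gstm7 and Prdx3 left of 0, while the other 45 cross it.

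Nqo1 encodes NAD(P)H quinone dehydrogenase, which reduces quinones and is a standard readout of NRF2 activity. Its intensity was 204, 248, 197 and 177 on hyperthyroid replicates 1, 3, 5 and 2, against 165, 110, 97.4 and 147 on control replicates 7, 8, 9 and 11. All 4 hyperthyroid arrays were higher than all 4 controls, by a narrow margin between 177 and 165. Group means were 206 ± 30.0 in hyperthyroid and 130 ± 31.4 in control muscle (SD, n = 4 each). This is a difference of 0.67 ± 0.22 (SE) on the log2 scale, or 1.59-fold (limma adjusted p = 0.313). Its unadjusted limma p of 0.0098 was the smallest among the antioxidant genes. With 1 array left out, the difference lay between 0.55 and 0.80 on the log2 scale.

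Gstp1 encodes the pi-class glutathione S-transferase, a cytosolic conjugating enzyme. Its intensity was 1036, 1042, 1063 and 908 on hyperthyroid replicates 1, 3, 5 and 2, against 676, 709, 873 and 862 on control replicates 7, 8, 9 and 11. Again the groups did not overlap, with hyperthyroid replicate 2 the closest to the controls. Gstp1 was thus 1.30-fold higher, at 0.38 ± 0.14 (SE) on the log2 scale (limma adjusted p = 0.354). The estimate stayed between 0.32 and 0.44 with 1 array left out.

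**Figure D2:**
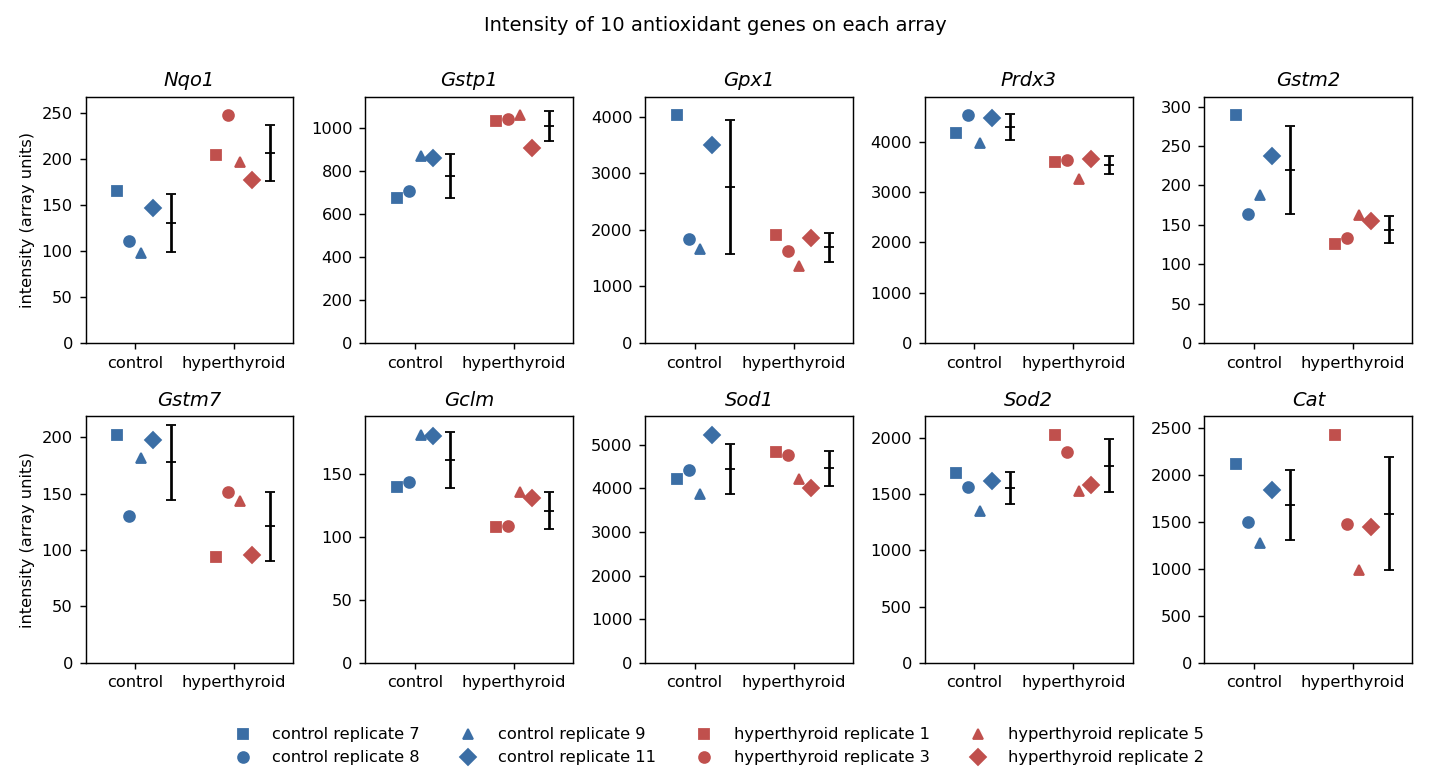
Intensity (y axis, array units, from 0) of 10 antioxidant genes on each of the 4 control and 4 hyperthyroid arrays; each symbol is 1 array and the black bar is the mean ± SD of the group. Nqo1 and Gstp1 are higher and Prdx3, Gstm2 and Gclm lower on all hyperthyroid arrays, Gpx1 is highest on control replicates 7 and 11, and the groups overlap for Gstm7, Sod1, Sod2 and Cat.

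The promoters of 5 genes are shown because these genes are conjugating or NRF2-linked enzymes whose group means differed in opposite directions. Each window holds 250 bases before and 50 after the annotated start of the gene in RefSeq (GRCr8), read 5′ to 3′ in the direction of the gene. Capitals mark TGACNNNGC, the core of the antioxidant response element, or the same letters on the other strand. Nqo1 and Gstp1 had higher values in the hyperthyroid group, Gclm, Gstm2 and Gstm7 lower values.
Nqo1 (chr19:52220218-52220517, minus strand): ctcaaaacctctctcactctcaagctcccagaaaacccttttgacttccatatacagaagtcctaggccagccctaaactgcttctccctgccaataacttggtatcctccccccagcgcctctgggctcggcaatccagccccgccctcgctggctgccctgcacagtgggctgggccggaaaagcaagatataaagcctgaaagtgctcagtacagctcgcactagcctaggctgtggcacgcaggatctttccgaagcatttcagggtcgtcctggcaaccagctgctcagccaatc
Gstp1 (chr1:210769656-210769955, minus strand): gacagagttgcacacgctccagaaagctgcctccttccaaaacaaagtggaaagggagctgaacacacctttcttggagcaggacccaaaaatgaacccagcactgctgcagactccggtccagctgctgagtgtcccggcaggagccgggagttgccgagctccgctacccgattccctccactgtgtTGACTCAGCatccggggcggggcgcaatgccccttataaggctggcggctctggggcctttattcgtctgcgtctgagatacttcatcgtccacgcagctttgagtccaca
Gclm (chr2:213031885-213032184, plus strand): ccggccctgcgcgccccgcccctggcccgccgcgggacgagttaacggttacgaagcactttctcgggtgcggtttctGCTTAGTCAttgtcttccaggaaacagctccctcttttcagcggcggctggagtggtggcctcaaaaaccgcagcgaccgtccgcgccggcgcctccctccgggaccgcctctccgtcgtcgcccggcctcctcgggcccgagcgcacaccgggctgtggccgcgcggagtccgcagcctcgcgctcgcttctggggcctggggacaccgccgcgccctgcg
Gstm2 (chr2:198316868-198317167, minus strand): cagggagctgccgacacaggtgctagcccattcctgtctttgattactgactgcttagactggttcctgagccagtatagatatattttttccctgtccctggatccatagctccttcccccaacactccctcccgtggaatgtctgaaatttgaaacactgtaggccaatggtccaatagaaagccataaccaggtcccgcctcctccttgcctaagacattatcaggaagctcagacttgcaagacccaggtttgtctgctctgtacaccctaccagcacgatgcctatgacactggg
Gstm7 (chr2:198260270-198260569, minus strand): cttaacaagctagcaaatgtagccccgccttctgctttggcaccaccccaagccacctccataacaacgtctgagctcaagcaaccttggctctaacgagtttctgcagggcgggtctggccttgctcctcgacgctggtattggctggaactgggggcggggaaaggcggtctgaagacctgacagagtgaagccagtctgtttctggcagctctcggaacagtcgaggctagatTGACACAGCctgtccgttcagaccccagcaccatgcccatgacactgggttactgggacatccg

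A core match began 61 bases before the start of Gstp1, where the same letters also hold the AP-1 site TGACTCA, 172 bases before the start of Gclm on the other strand, and 14 bases before that of Gstm7. The windows of Nqo1 and Gstm2 hold none, which says only that these letters are not in these 300 bases, and those of Prdx3 and Gpx1 held none either. RefSeq gave 57 windows for 52 of the 61 genes, and 18 of the 57 (31.6%) held a core match on either strand, against 12.1% of all 33469 promoter windows. GGGCGG, the GC box, which is common in promoters, was also more frequent, in 39 of the 57 (68.4%) against 33.1% of all windows. Genes with and without a core match lay in both directions among the 5 shown. The half-site of the thyroid hormone receptor, AGGTCA, was in 9 of the 57 (15.8%), against 16.2% of all windows, so the shares were close. These matches are a description of letters and were not tested for binding.

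Glutathione is made by glutamate-cysteine ligase, of which Gclc is the catalytic and Gclm the modifier subunit, and then by glutathione synthetase, Gss. Gclm had an intensity of 108, 108, 136 and 131 on hyperthyroid replicates 1, 3, 5 and 2, against 140, 144, 181 and 180 on control replicates 7, 8, 9 and 11. All 4 hyperthyroid arrays were lower, although hyperthyroid replicate 5 came within a few units of control replicate 7. For Gclm the log2 fold change was -0.40 ± 0.21 (SE), with a 95% interval from -0.85 to 0.04 (limma adjusted p = 0.526).

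Gclc ran from 53.5 to 94.3 on hyperthyroid and from 24.0 to 157 on control arrays, which overlapped widely. Its log2 fold change of 0.079 had an interval from -0.94 to 1.10 and turned to -0.35 without control replicate 9. Its other probe set gave 0.55 ± 0.66 (SE). Gsr, glutathione reductase, which regenerates reduced glutathione from its oxidised form, ran from 16.0 to 80.3 on hyperthyroid arrays and from 3.66 to 49.96 on control arrays. These low values gave 1.07 ± 0.75 (SE, limma adjusted p = 0.651), the largest estimate among the 51 and also one of the least precise. Gss lay under the filter, at 2.09 to 23.3 on hyperthyroid and 2.37 to 69.8 on control arrays.

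Glutathione peroxidases reduce peroxides at the expense of glutathione, and several of them carry selenocysteine at the active site. Gpx1, the main cytosolic enzyme, was at 1914, 1621, 1368 and 1863 on hyperthyroid replicates 1, 3, 5 and 2. On control replicates 7, 8, 9 and 11 it was at 4036, 1841, 1668 and 3508. The 2 high values are those of the control arrays with the highest slow-fibre markers, and the other 2 controls lay within the hyperthyroid range. Over all 8 arrays the log2 fold change was -0.61 ± 0.25 (SE, limma adjusted p = 0.437), or 1.53-fold higher in controls. Without control replicates 7 and 11 it was -0.063 (limma adjusted p = 0.917). Myh7, the slow myosin heavy chain, was at 5570 and 2692 on control replicates 7 and 11, and between 5.83 and 169 on the other 6 arrays. The part of slow fibres in the values of Gpx1 was not tested, nor that of the Schwann cell and smooth muscle markers also high on these 2 controls.

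**Figure D3:**
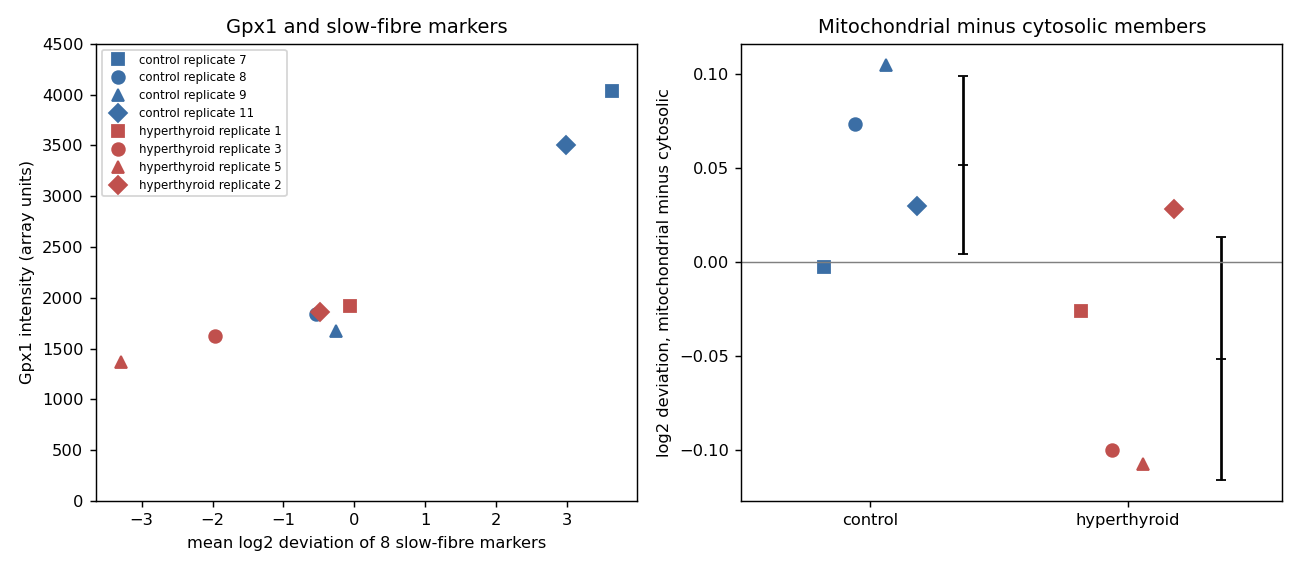
Left, Gpx1 intensity (y axis, array units) against the mean log2 deviation of 8 slow-fibre markers from their means over arrays (x axis), 1 symbol per array; control replicates 7 and 11 are high on both axes. Right, the mean log2 deviation of 5 mitochondrial minus 25 cytosolic antioxidant genes on each array, with mean ± SD of each group in black; control arrays ran from -0.0024 to 0.11 and hyperthyroid arrays from -0.11 to 0.028.

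Gpx4, which reduces lipid hydroperoxides in membranes and has cytosolic and mitochondrial forms, had 4638, 4273, 4246 and 4422 on hyperthyroid replicates 1, 3, 5 and 2, against 4391, 5543, 5508 and 3851 on control replicates 7, 8, 9 and 11. Hyperthyroid arrays lay close together within the range of the controls. Gpx4 had a log2 fold change of -0.12 with an interval from -0.41 to 0.17. A second probe set of Gpx4, near the filter, gave 0.18 ± 0.94 (SE). Gpx3, the secreted plasma enzyme, had group means of 476 ± 158 in hyperthyroid and 372 ± 100 in control muscle (SD, n = 4 each), with overlapping arrays and a log2 fold change of 0.33 ± 0.25 (SE).

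Gpx7 and Gpx8 act in the endoplasmic reticulum. Gpx7 was at 57.9, 70.5, 102 and 36.4 on hyperthyroid replicates 1, 3, 5 and 2. In the control group it was at 88.1 and 156 on replicates 7 and 11 but at 8.58 and 7.997 on replicates 8 and 9. Control replicate 11 thus lay above the hyperthyroid range, replicate 7 within it, and replicates 8 and 9 below it. Gpx7 had a log2 fold change of 0.81 ± 0.78 (SE), 0.26 without control replicate 8, 0.24 without control replicate 9, and 2.50 without control replicates 7 and 11 (limma adjusted p = 0.274). The mean log2 deviation of 6 fibroblast markers was highest on hyperthyroid replicate 5 (1.73) and control replicate 11 (1.43), the arrays with the highest Gpx7, and lowest on control replicate 8 (-1.90). Control replicate 9, with the lowest Gpx7, was at -0.0017, near control replicate 7 at -0.12. By the same measure, adipocyte and macrophage markers were also highest on hyperthyroid replicate 5 (1.19 and 0.63) and control replicate 11 (0.81 and 1.01). They were lowest on control replicate 8 (-1.58 and -1.08). The part of these cell types in Gpx7 was not tested. Gpx8 ran from 106 to 198 and from 102 to 305 in the 2 groups. Gpx2 and Gpx6 lay under the filter.

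No difference in the superoxide dismutases was detectable with 4 arrays a group. Sod1, the copper and zinc enzyme of the cytosol, had 4838, 4773, 4204 and 4016 on hyperthyroid replicates 1, 3, 5 and 2, against 4209, 4426, 3881 and 5231 on control replicates 7, 8, 9 and 11. The highest and the lowest array were both controls. Sod1 had a log2 fold change of 0.011 with an interval from -0.26 to 0.28. Sod2, the manganese enzyme of the mitochondrial matrix, had 2030, 1878, 1532 and 1581 on hyperthyroid arrays in the same order and 1685, 1564, 1354 and 1614 on controls. Hyperthyroid replicates 1 and 3 exceeded every control, and the other 2 did not. Sod2 had a log2 fold change of 0.17 with an interval from -0.12 to 0.46, and stayed above 0 under all 20 alternatives. Sod3, the secreted form, had means of 297 ± 37.8 and 293 ± 103 (SD, n = 4 each).

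Cat, the peroxisomal catalase, was at 2431, 1481, 993 and 1448 on hyperthyroid replicates 1, 3, 5 and 2, against 2115, 1497, 1276 and 1845 on control replicates 7, 8, 9 and 11. The hyperthyroid group held both the highest and the lowest array. For Cat, a log2 fold change of -0.13 ± 0.24 (SE) had an interval from -0.64 to 0.38 and changed sign with the arrays chosen, from -0.36 without hyperthyroid replicate 1 to 0.13 without control replicates 7 and 11.

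Peroxiredoxins reduce hydrogen peroxide through a reactive cysteine, and 4 of the 5 with a probe set of their own had lower estimates in the hyperthyroid group. The probe set that carries both Prdx1 and Prdx1l1, which lies outside the chosen genes, went the other way, at 3860, 3480, 2800 and 3502 on hyperthyroid replicates 1, 3, 5 and 2, against 2757, 2322, 2140 and 2875 on control replicates 7, 8, 9 and 11, with hyperthyroid replicate 5 below the highest control. Prdx3, the mitochondrial member, was at 3593, 3649, 3265 and 3667 on hyperthyroid replicates 1, 3, 5 and 2, against 4176, 4541, 3989 and 4472 on control replicates 7, 8, 9 and 11. Every hyperthyroid array was below every control, and the SD within groups, 0.08 on the log2 scale, was small. Prdx3 was 1.21-fold higher in controls, with a log2 fold change of -0.28 ± 0.11 (SE) (limma adjusted p = 0.405). It was -0.27 without control replicates 7 and 11. It was 0.044 after scaling to the hybridization controls, a setting under which the median of all genes moved to 0.31, so that relative to this shift Prdx3 was at -0.27.

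Prdx2, an abundant cytosolic peroxiredoxin of muscle and red cells, had 1989, 1633, 1578 and 1884 on hyperthyroid replicates 1, 3, 5 and 2, against 2045, 2136, 1818 and 2325 on control replicates 7, 8, 9 and 11. Hyperthyroid replicates 1 and 2 lay within the range of the controls. On the log2 scale the difference was -0.23 ± 0.13 (SE, limma adjusted p = 0.558). The summed red-cell markers ran from 4328 to 7915 on hyperthyroid and from 4209 to 12895 on control arrays. Of the 3 tested, Hbb (-0.37) and Alas2 (-0.30) had estimates below 0 and Slc4a1 (0.77) above, and Ahsp lay under the filter. Their part in Prdx2 was not tested. Prdx5, found in cytosol, mitochondria and peroxisomes, had a log2 fold change of -0.16 with an interval from -0.41 to 0.09. Prdx6, which also reduces phospholipid peroxides, had 0.06 with an interval from -0.24 to 0.37.

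Prdx4, the peroxiredoxin of the endoplasmic reticulum, had 147, 246, 398 and 175 on hyperthyroid replicates 1, 3, 5 and 2, against 227, 195, 208 and 395 on control replicates 7, 8, 9 and 11. Its high arrays, hyperthyroid replicate 5 and control replicate 11, were those with the highest mean log2 deviation of the fibroblast, adipocyte and macrophage markers. By summed intensity, adipocyte markers were highest on hyperthyroid replicate 1 (2669, against 2018 on hyperthyroid replicate 5 and 2517 on control replicate 11). Its log2 fold change of -0.13 ± 0.31 (SE) was 0.15 without control replicates 7 and 11. The sign of the estimates of Prdx2, Prdx3, Prdx4 and Prdx5 turned above 0 after scaling to the hybridization controls, where their values were 0.087, 0.044, 0.19 and 0.16, each below the median of all genes under that scaling.

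The thioredoxin system passes electrons from NADPH through thioredoxin reductase to thioredoxin, which serves the peroxiredoxins. All 16 genes with symbols beginning in Txn were tested, with a median log2 fold change of 0.097, and none had an unadjusted p under 0.05. Txn1, cytosolic thioredoxin, had 4151, 4620, 4935 and 4205 on hyperthyroid replicates 1, 3, 5 and 2, against 3315, 3758, 3551 and 4948 on control replicates 7, 8, 9 and 11. Apart from control replicate 11, the highest of all, the controls lay below the hyperthyroid arrays. Txn1 had a log2 fold change of 0.22 ± 0.14 (SE, limma adjusted p = 0.612), and 0.34 without control replicate 11. Txn2, the mitochondrial thioredoxin, had means of 889 ± 197 and 819 ± 251 (SD, n = 4 each), overlapping groups and a log2 fold change of 0.15 ± 0.22 (SE). The estimate was 0.0047 without hyperthyroid replicate 1, 0.0026 without control replicate 8 and 0.030 without control replicate 9.

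Txnrd1, the cytosolic thioredoxin reductase and an NRF2 target, was at 864, 304, 249 and 592 on hyperthyroid replicates 1, 3, 5 and 2, while the controls lay between 339 and 438. Hyperthyroid replicates 1 and 2 were above every control and the other 2 below every control. Its log2 fold change of 0.22 ± 0.32 (SE) became -0.097 without hyperthyroid replicate 1. The second probe set of Txnrd1 showed the same arrays high, with 275, 109, 95.7 and 154 on hyperthyroid replicates 1, 3, 5 and 2 and controls from 83.1 to 123. Txnrd2, the mitochondrial reductase, had -0.27 ± 0.23 (SE), with hyperthyroid replicate 3 at 80.6 and the other 7 arrays from 130 to 157.

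Txnip binds and inhibits thioredoxin and also limits glucose uptake. It was at 7617, 4740, 3998 and 3305 on hyperthyroid replicates 1, 3, 5 and 2, against 2684, 4083, 4209 and 5741 on control replicates 7, 8, 9 and 11, a wide spread in both groups. Txnip had a log2 fold change of 0.21 ± 0.25 (SE), and -0.023 without hyperthyroid replicate 1. The remaining thioredoxin-like genes, which include chaperones of the secretory pathway (Txndc5, Txndc11, Txndc12) and the splicing factors Txnl4a and Txnl4b, had overlapping groups.

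Glutathione S-transferases went both ways within the same subfamily. Of 21 genes, 14 were tested, 5 with estimates above 0 and 9 below, with a median of -0.075. Gstm2, a mu-class enzyme expressed in muscle, was at 126, 133, 162 and 155 on hyperthyroid replicates 1, 3, 5 and 2, against 290, 164, 188 and 238 on control replicates 7, 8, 9 and 11. All hyperthyroid arrays lay below all controls, with the closest at 162 and 164. Gstm2 was 1.49-fold higher in controls, at -0.57 ± 0.22 (SE) on the log2 scale (limma adjusted p = 0.385), and -0.29 without control replicates 7 and 11.

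Gstm7, another mu-class enzyme, was at 93.4, 152, 144 and 95.3 on hyperthyroid replicates 1, 3, 5 and 2, against 202, 130, 182 and 198 on control replicates 7, 8, 9 and 11. Control replicate 8 lay within the hyperthyroid range and the other controls above it. Gstm7 had a log2 fold change of -0.56 ± 0.24 (SE, limma adjusted p = 0.441), and -0.37 without control replicates 7 and 11. In the same class, Gstm1 had 0.39 ± 0.25 (SE) and Gstm4 0.29 ± 0.25 (SE), with overlapping groups. The mu-class genes are close in sequence, and whether their probe sets detect one another's transcripts was not examined.

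Gstk1, the kappa-class enzyme of mitochondria and peroxisomes, had 262, 392, 295 and 254 on hyperthyroid replicates 1, 3, 5 and 2, against 501, 348, 389 and 325 on control replicates 7, 8, 9 and 11. Hyperthyroid replicate 3 reached the level of the controls and the other 3 were below them all. Its log2 fold change was -0.37 ± 0.19 (SE, limma adjusted p = 0.532), and -0.51 without hyperthyroid replicate 3. The 7 transferases under the filter, Gsta3, Gsta3l1, Gstm3, Gstm6l, Gsto2, Gstp3 and Gstt1, had group means between 3.36 and 25.8.

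The regulators and inducible genes of oxidative stress gave no common direction. Nfe2l2, which encodes NRF2, was at 713, 519, 526 and 518 on hyperthyroid replicates 1, 3, 5 and 2, against 671, 637, 676 and 522 on control replicates 7, 8, 9 and 11. Hyperthyroid replicate 1 was the highest of all arrays, and the other 3 lay near the lowest control. For Nfe2l2 the difference was -0.14 on the log2 scale with an interval from -0.48 to 0.20. Hmox1, the inducible heme oxygenase, had means of 58.6 ± 9.01 and 59.8 ± 33.4 (SD, n = 4 each). Srxn1, sulfiredoxin, which repairs overoxidised peroxiredoxins, ran from 15.2 to 125 in hyperthyroid and from 6.59 to 77.0 in control muscle, and its second tested probe set had an estimate of the opposite sign (-0.70 ± 0.67, SE). Among 8 further tested probe sets of 6 genes, 3 had the sign of the brightest.

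**Figure D4:**
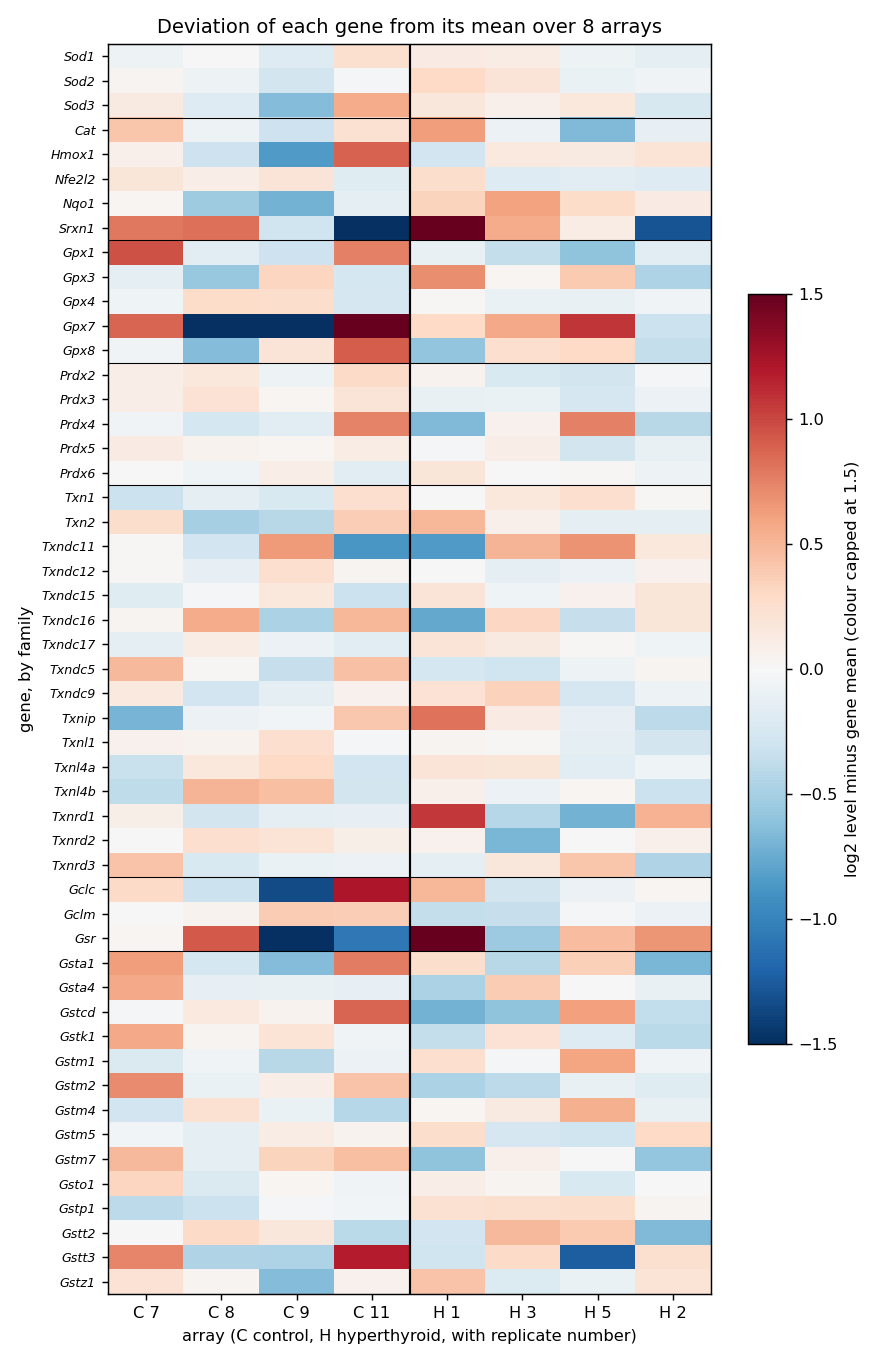
Log2 level of each of the 51 tested genes minus its mean over 8 arrays (colour, capped at 1.5), with genes in rows by family and arrays in columns, controls left of the vertical line. Control replicates 7 and 11 share high values in Gpx1, Gpx7, Gsta1, Gstm2 and Gstt3, and hyperthyroid replicate 1 is high in Cat, Txnip and Txnrd1.

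Mitochondrial members were compared with cytosolic ones. The mitochondrial genes Sod2, Prdx3, Txn2, Txnrd2 and Gstk1 had 2 estimates above 0 and 3 below, with a median log2 fold change of -0.27. Of the 25 tested cytosolic genes, 13 were above and 12 below, with a median of 0.0061. The mean difference was smaller than the medians show: the mean log2 level of the mitochondrial genes relative to the cytosolic ones was -0.026, -0.10, -0.11 and 0.028 on hyperthyroid replicates 1, 3, 5 and 2, against -0.0024, 0.074, 0.11 and 0.030 on control replicates 7, 8, 9 and 11. Hyperthyroid replicate 2 lay within the range of the controls, so the groups overlapped. The difference of group means was -0.10. The difference of the medians, -0.28, was -0.068 without hyperthyroid replicate 3 and -0.12 when Prdx5, Gpx4, Gsr and Gstz1, which work in both places, were added to the mitochondrial genes. With these 4 added, the difference of group means turned to 0.057. Hyperthyroid arrays then ran from -0.16 to 0.16 and control arrays from -0.15 to 0.22, so the direction depends on which genes are counted. Of the 4, the dim and imprecise Gsr had by far the largest estimate, 1.07 ± 0.75 (SE). Gstz1 had 0.17, Gpx4 -0.12 and Prdx5 -0.16. The difference with Gsr left out was not computed. Places were taken from a fixed list that counts Gpx1 as cytosolic only. Gpx1 had the lowest estimate of the 51, -0.61, and the difference with Gpx1 placed otherwise was not computed. Within the mitochondrion, Sod2 and Prdx3 had estimates of opposite sign.

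The 2 control arrays with the highest slow-fibre, Schwann cell and smooth muscle markers shared a pattern in many of these genes. This comparison was chosen after the values were seen. Control replicates 7 and 11 were both above control replicates 8 and 9 for 20 of the 51 genes (39.2%), against 22.3% of all genes, Gpx1, Gpx7, Cat, Gsta1, Gstm2, Gstm7, Sod2, Txn2 and Prdx5 among them. They were both below for 8 (15.7%), against 20.4% of all genes. Hyperthyroid replicate 1 was the highest of the 8 arrays for 13 of the 51 (25.5%), against 13.3% of all genes, including Cat, Sod2, Nfe2l2, Txn2, Txnrd1 and Txnip. The cause of either pattern was not tested.

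Other genes of the pathway, not chosen by name above, were read from 7 lists. Of their 64 tested genes, 37 had an estimate above 0 and 27 below, 0 passed the limma threshold, and an unadjusted p under 0.05 was reached by 7 that were higher (10.9%, against 5.38% of all genes) and 4 that were lower (6.25%, against 5.21%). Of these 11 genes, the 10 with the smallest p are described here. The last, Glo1, a glyoxalase that uses glutathione, had 0.36 ± 0.16 (SE, limma adjusted p = 0.454) and was not followed through the alternatives. In the list of NRF2 control and NRF2 targets, 12 genes were tested, 5 with estimates above 0 and 7 below. Their median was -0.074, and 0 reached an unadjusted p under 0.05, against 10.6% of all genes. Of the 7 genes higher at an unadjusted p under 0.05, 5 belonged to the list of selenoproteins and the machinery that makes them. In that list 12 genes were tested, 8 with estimates above 0 and 4 below. The 5 are 41.7% of them, against 5.38% of all genes. Sephs1 (-0.12), Selenof (-0.12), Selenom (-0.057) and Selenos (-0.055) lay below 0. Of the 5, Sepsecs and Secisbp2 are machinery and the others are selenoproteins. The machinery serves the thioredoxin reductases and those glutathione peroxidases that contain selenocysteine.

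Sepsecs, which makes selenocysteine on its transfer RNA, was at 191, 231, 247 and 188 on hyperthyroid replicates 1, 3, 5 and 2, against 124, 168, 176 and 100.3 on control replicates 7, 8, 9 and 11. Secisbp2, which directs the ribosome to insert selenocysteine, was at 161, 150.3, 178 and 207 on hyperthyroid arrays in the same order and at 148, 72.1, 114 and 133 on controls. For both genes all hyperthyroid arrays were above all controls. The log2 fold changes were 0.60 ± 0.22 and 0.60 ± 0.25 (SE, limma adjusted p = 0.379 and 0.440), and without control replicates 7 and 11 they were 0.30 and 0.90.

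Selenow, a small muscle selenoprotein, was at 4584, 3909, 4150 and 4065 on hyperthyroid replicates 1, 3, 5 and 2, against 1966, 3471, 3917 and 1985 on control replicates 7, 8, 9 and 11. Its 2 low arrays were the controls rich in slow-fibre transcripts, and the log2 fold change of 0.63 ± 0.21 (SE, limma adjusted p = 0.318) was 0.18 without them. Selenop, the secreted selenium carrier, showed the reverse, with 4271 and 4036 on control replicates 7 and 11, 1476 and 1876 on control replicates 8 and 9, and 3460 to 5327 on hyperthyroid arrays. Its log2 fold change was 0.73 ± 0.30 (SE, limma adjusted p = 0.421), and 1.39 without control replicates 7 and 11 (limma adjusted p = 0.0427), the only one of the 10 pathway genes with the smallest p to pass under any of the 20 alternatives. Selenok, a protein of the endoplasmic reticulum, had 0.34 ± 0.14 (SE).

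NADPH feeds both the glutathione and the thioredoxin reductases. In the list of NADPH supply 12 genes were tested, 8 with estimates above 0 and 4 below, with a median of 0.031. Nnt, the mitochondrial transhydrogenase, and Idh2, the mitochondrial isocitrate dehydrogenase, had log2 fold changes of -0.89 ± 0.27 and -0.66 ± 0.20 (SE, limma adjusted p = 0.273 and 0.276). Both were highest on control replicates 7 and 11, with Nnt at 4391 and 3635 against 1041 to 2631 elsewhere, and their values were -0.46 and -0.42 without these arrays. Idh1, the cytosolic isocitrate dehydrogenase, had 0.69 ± 0.26 (SE, limma adjusted p = 0.379), with hyperthyroid replicate 1 highest at 1988. It was 0.44 without that array and 0.11 with the mean of all its probe sets (limma adjusted p = 0.913). Hagh, a glyoxalase that releases glutathione, was lower on all hyperthyroid arrays (390 to 483) than on any control (524 to 648), with -0.40 ± 0.14 (SE). Slc3a2, a chain of amino acid transporters, had -0.47 ± 0.17 (SE). None of these passed over all genes.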

How the data were processed

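Tibialis anterior RNA of 8 rats was measured on Affymetrix expression arrays. The authors deposited 1 linear intensity per probe set and array. Per the submitters' processing notes the tool was GCOS; its settings are not given here. The mean of each array was 150.1 with 2% of values trimmed at each end. Such scaling removes differences in total RNA between arrays.

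Of 31099 probe sets, 57 were controls. Entrez identifiers matched all 61 genes to RefSeq (GRCr8), and no symbol changed. A pseudocount of 3.41, the 10th percentile, was added before taking log2, and every fold change is on this scale, which makes those of dim probe sets smaller. Probe sets with a mean log2 above the 40th percentile (4.69, an intensity of about 22.4) were kept, which left 10200 genes, each read from its brightest probe set. All of them were fitted with limma 3.58.1 in R 4.3.3 (lmFit and eBayes with a variance trend, two-sided, Benjamini-Hochberg over all genes, threshold 0.05). The fit was also run on simulated data with planted changes larger than nearly all estimates of the antioxidant genes. Its power for smaller differences was not tested there. Other probe sets were read from a fit to all 18625 kept probe sets.

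The genes, the lists and the alternatives were chosen with earlier results of these data known. Values on each array are given for antioxidant genes with an unadjusted p under 0.05 and, in full or as ranges and means, for a fixed core of them. Of the other pathway genes, the 10 with the smallest p are named, with arrays or estimates. Glo1, Sephs1, Selenof, Selenom, Selenos and a few genes named outside that rule, such as Gstk1, Gpx7, Gstm1 and Gstm4, were chosen after their values were seen. No p is given for a list. Alternatives were other normalizations, pseudocounts, filters, variance models and summaries of probe sets, and arrays left out.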

Additional observations from a re-analysis of the deposited data

Results flagged for a closer look

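In 6 of the 110 groups of 4 arrays read for these genes, 1 array lay far from the other 3, its gap to the nearest exceeding 0.829 of the whole range; chance alone flags about 1 group in 20. Nfe2l2 was at 713 on hyperthyroid replicate 1 and at 518 to 526 on the other hyperthyroid arrays. Txnrd2 was at 80.6 on hyperthyroid replicate 3, against 130 to 139. Among controls, Gsta4 was at 169 on replicate 7 against 103 to 104, and Txnrd3 at 151.2 on the same array against 94.8 to 104. Prdx4 was at 395 on control replicate 11 against 195 to 227, and Gstcd at 74.1 on that array against 38.4 to 43.5. The 6 of 110 are a share near that chance rate. Of the 6 single arrays, 4 were control replicates 7 or 11, and no pattern is read from so few.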

How the results depend on the processing

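No antioxidant gene passed under any of the 20 alternatives, the lowest adjusted p (limma) being 0.073, against 0.313 as reported. Over all genes, 7 were called higher as reported, 12 with arrays centred on their medians, 110 after scaling to the hybridization controls, 0 without a variance trend, 1 with the mean of all probe sets, 3 without control replicates 7 and 11, 1 at an adjusted p under 0.01, and 1 to 7 with 1 array left out (1 without hyperthyroid replicate 3 and without control replicate 7). Called lower were 0 as reported (531 at an unadjusted p under 0.05), 1 with no filter, 4 with a robust variance, 1 with array weights, 2 at an adjusted p under 0.10, and 0 to 1 with 1 array left out. Centring on medians and scaling to the hybridization controls moved the median of all genes to 0.22 and 0.31 on the log2 scale; the median of the antioxidant genes became 0.22 and 0.31, that of the cytosolic ones 0.23 and 0.32, and that of the mitochondrial ones -0.053 and 0.044. With 1 array left out the mitochondrial median ran from -0.29 to -0.092, and the difference between the classes from -0.38 to -0.068; adding the genes of both places gave -0.12. The cause was not tested for any of these.

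Under the 18 alternatives that do not shift all genes, the sign turned at least once for 23 of the 51 genes and held for 28. Estimates just below 0 must turn under the 2 settings that shift all genes, and 13 did with centring and 18 with hybridization scaling. Of the genes described singly, these were, with centring, Prdx4 (0.089), Nfe2l2 (0.076), Cat (0.089), Prdx5 (0.058) and Gpx4 (0.10). With hybridization scaling they were Prdx4 (0.19), Prdx5 (0.16), Prdx3 (0.044), Prdx2 (0.087), Txnrd2 (0.039), Cat (0.19), Nfe2l2 (0.18) and Gpx4 (0.20), all below the shift of all genes. Gpx4 was 0.032 with the mean of all probe sets, and Cat and Prdx4 were 0.13 and 0.15 without control replicates 7 and 11. With 1 array left out, the sign turned within the range from -0.050 to 0.093 for Sod1, -0.13 to 0.28 for Sod3, -0.36 to 0.069 for Cat, -0.40 to 0.096 for Prdx4, -0.097 to 0.50 for Txnrd1, -0.023 to 0.38 for Txnip, -0.35 to 0.50 for Gclc, -0.16 to 0.42 for Hmox1 and -0.024 to 0.27 for Gstz1. Selenop, outside the chosen genes, reached 1.39 without control replicates 7 and 11 (limma adjusted p = 0.0427). No paired analysis was possible because the groups share no replicate numbers. Which array came from the female of each group is not stated, so sex was not a term in the fit.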
